A study of Homo sapiens with 8 samples.

Results

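Antisense long noncoding RNAs were examined in A549 cells, an established line of human lung adenocarcinoma, after exposure to EEDS or to helveticoside. EEDS is the ethanol extract of the seeds of Descurainia sophia, and helveticoside is a cardiac glycoside, a class of compounds that bind and inhibit the sodium pump. The members were all genes whose symbol ends in -AS and 1 digit, except EPB41L4A-AS1, found through the sequence accession printed beside each probe. They numbered 166 of the 19056 named genes on the array. RefSeq classes 162 of them as long noncoding RNA and 4 as antisense RNA.

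The study compared increasing doses of each agent with its own vehicle control on 8 one-colour Agilent arrays. The EEDS series held a vehicle control and 1.25, 5 and 20 ug/mL. The helveticoside series held a vehicle control and 3.75, 15 and 60 nM. Every array carried a pool of RNA from 3 cultures. With a single array per dose, the spread between replicates of a dose is not known. No genetic change and no other agent is named in the labels. The labels give 48 h of exposure and the methods of the study 24 h, so the time cannot be stated.

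An antisense RNA is read from the strand opposite to another gene, here called the partner, whose symbol it carries. Some share a divergent or bidirectional promoter region with the partner, some lie inside it, and some meet it end to end. Such RNAs are often kept in the nucleus, are usually less abundant than mRNAs, and several are known to act on the partner's transcription, on chromatin or on microRNAs. Many others have no assigned function. The nuclear exosome and its adaptors remove many unstable transcripts of this kind.

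Of the 166 antisense RNAs, 160 had a partner on the array. The partners were 159 different genes, of which 158 code for protein. The strand of both genes was known for 105 pairs, and in all 105 the strands were opposite. In 64 pairs the genes lay head to head, in 20 the antisense RNA lay inside the partner, in 5 it spanned the partner, and in 16 the genes met tail to tail. The starts lay within 1000 bases of each other in 41 pairs.

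The start regions of 4 antisense RNAs with a dose trend for both agents, described further on, are printed first, together with that of SERTAD4, the partner that moved with its antisense RNA. Each window runs from 250 bases before to 50 bases after the first listed RefSeq start (GRCh38.p14), 5′ to 3′ on the strand of the gene. Capitals mark matches to 4 motifs on either strand.
SERTAD4-AS1, chr1:210233836-210234135, minus strand: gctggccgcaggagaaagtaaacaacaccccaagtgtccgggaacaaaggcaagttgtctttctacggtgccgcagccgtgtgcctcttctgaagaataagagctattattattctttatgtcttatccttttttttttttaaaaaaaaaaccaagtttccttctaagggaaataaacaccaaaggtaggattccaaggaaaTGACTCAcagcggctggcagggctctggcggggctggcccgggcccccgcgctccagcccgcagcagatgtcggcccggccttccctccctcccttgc
SERTAD4, chr1:210232546-210232845, plus strand: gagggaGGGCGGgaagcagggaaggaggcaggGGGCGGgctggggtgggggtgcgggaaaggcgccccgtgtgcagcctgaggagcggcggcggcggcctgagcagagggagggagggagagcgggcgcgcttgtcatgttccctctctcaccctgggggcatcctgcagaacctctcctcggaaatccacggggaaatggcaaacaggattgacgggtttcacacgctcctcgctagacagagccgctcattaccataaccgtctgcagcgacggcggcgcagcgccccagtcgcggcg
OIP5-AS1, chr15:41283740-41284039, plus strand: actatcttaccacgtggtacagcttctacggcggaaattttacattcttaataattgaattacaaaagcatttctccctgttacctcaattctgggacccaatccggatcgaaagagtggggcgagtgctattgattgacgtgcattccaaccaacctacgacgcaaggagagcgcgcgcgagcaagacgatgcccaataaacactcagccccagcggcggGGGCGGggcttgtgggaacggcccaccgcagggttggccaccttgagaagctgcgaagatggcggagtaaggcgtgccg
SNAI3-AS1, chr16:88663123-88663422, plus strand: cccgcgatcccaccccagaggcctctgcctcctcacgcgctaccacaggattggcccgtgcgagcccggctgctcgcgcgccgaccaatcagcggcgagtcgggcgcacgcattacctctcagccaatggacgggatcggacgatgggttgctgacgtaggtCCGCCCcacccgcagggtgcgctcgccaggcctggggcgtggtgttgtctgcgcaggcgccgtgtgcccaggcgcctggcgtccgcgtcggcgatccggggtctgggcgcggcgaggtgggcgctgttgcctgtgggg
TMPO-AS1, chr12:98516177-98516476, minus strand: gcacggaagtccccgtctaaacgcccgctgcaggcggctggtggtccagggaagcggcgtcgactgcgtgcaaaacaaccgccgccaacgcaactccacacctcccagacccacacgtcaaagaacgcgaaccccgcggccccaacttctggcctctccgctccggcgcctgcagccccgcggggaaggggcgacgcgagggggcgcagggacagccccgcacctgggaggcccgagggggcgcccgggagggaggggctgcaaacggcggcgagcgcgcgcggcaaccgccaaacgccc

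The motifs searched were the cyclic AMP response element TGACGTCA, the AP-1 site TGACTCA, the GC box GGGCGG and the ETS site CCGGAAG. The SERTAD4-AS1 window held 1 AP-1 site and no other match. The SERTAD4 window held 2 GC boxes and no AP-1 site. The OIP5-AS1 and SNAI3-AS1 windows each held 1 GC box, and the TMPO-AS1 window held none of the 4 motifs. PSMG3-AS1 and DHRS4-AS1 also had a dose trend for both agents, and their windows are not printed. The PSMG3-AS1 window held 4 GC boxes and 3 ETS sites, and the DHRS4-AS1 window 1 ETS site. Over the 121 antisense RNAs in the RefSeq promoter table, 4.13% had an AP-1 site, 43.8% a GC box, 10.7% an ETS site and none a cyclic AMP response element. The shares over all 27305 promoters of that length were 4.92%, 44.6%, 10.7% and 1.98%. A match is a string of letters and was not tested as a binding site.

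Detection limited what could be said of many members. The scanner software marks a spot as well above background when it clearly exceeds the local background. By that mark, 61 antisense RNAs (36.7%) were measured on all 8 arrays, 47 on some and 58 (34.9%) on none. The shares over all named genes were 60.3% on all arrays and 22.5% on none. Between 64 and 92 antisense RNAs were well above background on a given array. A549 identity was checked through KRT8, KRT18 and KRT19, keratins of epithelial cells, and through EPCAM, ALDH1A1, AKR1B10 and AKR1C1. All 7 were well above background on all 8 arrays. Of 8 markers of leukocytes, endothelium, fibroblasts and hepatocytes, PTPRC was well above background on all 8 arrays and the other 7 on none.

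A ratio was taken where a gene was well above background on both the treated and the vehicle array. Where it was so on only 1 of them, the ratio is a bound, written as "at least". The bound was taken against the lowest signal that could be called on the dim array, or against its reading where that was higher. Fewer copies per cell and fewer cells with the RNA cannot be told apart in pooled RNA. At 20 ug/mL of EEDS, 96 antisense RNAs had a ratio or a bound. Of these, 22 were over 2-fold lower than vehicle (22.9%; over all genes 16.8%) and 6 were over 2-fold higher (6.25%; over all genes 15.4%). At 60 nM of helveticoside, 16 of 82 were over 2-fold lower (19.5%; over all genes 14.1%) and 6 were over 2-fold higher (7.32%; over all genes 11.5%). Bounds gave 6 of the lower and 1 of the higher calls at each top dose. Of 123 partners, 18 were over 2-fold lower and 21 higher at the top EEDS dose (14.6% and 17.1%). Of 121 partners, 13 were lower and 17 higher at the top helveticoside dose (10.7% and 14.05%). The arrays were scaled by quantile normalization. With scaling to the 75th percentile instead, the split at the top EEDS dose became 39 lower and 4 higher, and the median of all genes moved to -0.36 on the log2 scale at that dose.

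At the lower doses, too, more antisense RNAs were over 2-fold lower than higher. At 1.25 ug/mL of EEDS, 12 of 96 antisense RNAs were over 2-fold lower and 8 higher, against 7.64% of all genes in either direction. Split by direction, 12.5% of the antisense RNAs were lower and 8.33% higher, against 3.37% and 4.27% of all genes. At 5 ug/mL, 16 of 98 were lower and 5 higher (over all genes, 17% in either direction). At 3.75 nM of helveticoside, 4 of 77 were lower and 2 higher (over all genes, 3.53% in either direction). These were 5.19% lower and 2.60% higher, against 1.67% and 1.86% of all genes. Bounds gave 2 of the 4 lower calls. The median log2 ratio of the 63 antisense RNAs well above background on both arrays was 0.06 at this dose, above 0. At 15 nM, 12 of 83 were lower and 6 higher (over all genes, 14% in either direction). These were 14.5% lower and 7.23% higher, against 7.84% and 6.13% of all genes. The share of antisense RNAs over 2-fold higher thus also exceeded that of all genes at 1.25 ug/mL, 3.75 nM and 15 nM. A gene measured on only 1 of the arrays can enter these counts through the array on which it was bright, so the counts describe the arrays and were not tested.

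**Figure D1:**
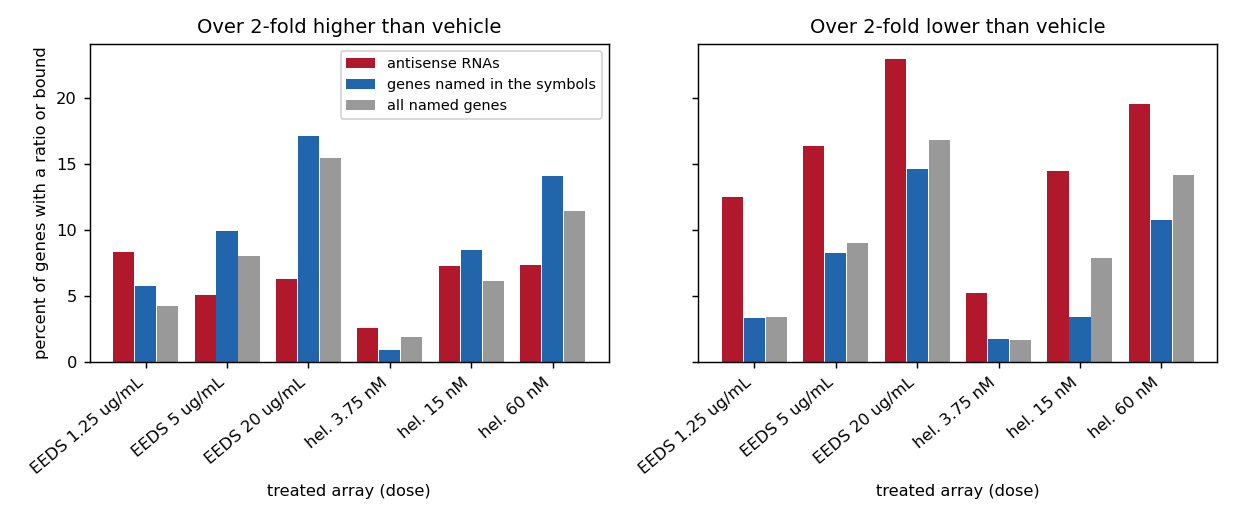
Percent of genes over 2-fold higher (left) or lower (right) than the vehicle array, for antisense RNAs, their partners and all named genes; each bar is 1 treated array, with no error because each dose had 1 array. At the top EEDS dose the antisense RNAs stand at 22.9% lower and 6.25% higher, and all genes at 16.8% and 15.4%.

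Dim spots vary more, so the same shares were taken over the 38 antisense RNAs with a mean log2 signal of at least 8 over the 8 arrays. At the top EEDS dose 9 of them were over 2-fold lower and 2 higher (23.7% and 5.26%), against 16.5% and 14.9% of the 9605 genes as bright. At the top helveticoside dose 7 were lower and 3 higher (18.4% and 7.89%), against 13.0% and 11.4%. At 1.25 ug/mL of EEDS 2 of the 38 were lower and 2 higher (5.26% each), against 2.01% and 3.45% of the genes as bright. At 5 ug/mL 3 were lower and 1 higher (7.89% and 2.63%), against 7.28% and 7.70%. At 3.75 nM of helveticoside 2 were lower and 1 higher (5.26% and 2.63%), against 0.92% and 0.87%. At 15 nM 3 were lower and 1 higher (7.89% and 2.63%), against 5.53% and 5.70%. At these 4 lower doses 25, 21, 16 and 19 of the 38 log2 ratios lay below 0, with medians of -0.13, -0.20, 0.08 and 0.03. The median log2 ratio of the 38 was -0.35 at the top EEDS dose and -0.22 at the top helveticoside dose, against -0.01 and 0.02 for all genes as bright.

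Responses to the 2 agents were then set side by side. Over the 61 measured on all arrays, 12 were over 2-fold from vehicle at both top doses, all 12 in the same direction for both agents. That is 19.7% of the 61, against 20.6% of all genes measured on all arrays. The Pearson r between the top doses over the 61 was 0.94, against 0.93 over all genes measured on all arrays, and the 2 series share no control array. At the other end, 25 of the 61 lay within 0.5 of vehicle on the log2 scale at both top doses (41.0%; over all genes 35.0%). BAALC-AS2, TPT1-AS1, THUMPD3-AS1 and SRRM2-AS1 were among these.

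Dose trends were fitted with limma as a slope in log2 signal per dose step, with the vehicle as step 0. For EEDS, 6 antisense RNAs rose and 17 fell at an adjusted p under 0.05, of 166 tested in a fit over 19056 genes, in which 7.26% of all genes rose and 7.85% fell. For helveticoside, 3 rose and 7 fell, where 5.46% of all genes rose and 5.79% fell. The antisense RNAs called made up 13.9% of the members for EEDS and 6.02% for helveticoside, both below the shares of all genes, 15.1% and 11.3%. These shares join both directions. They also take in genes well above background on no array, 34.9% of the members and 22.5% of all genes. The trend fit also takes in dim probes: of the 23 EEDS calls, 13 were on probes well above background on all 4 EEDS arrays, 6 on 1 to 3 of them and 4 on none. Of the 10 helveticoside calls, 5 were on all 4 arrays and 5 on 1 to 3. The slopes of the 2 agents differed for no antisense RNA at an adjusted p under 0.05 in limma, while 10 had an unadjusted p under 0.05.

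Many of these calls were not made in fits on fewer arrays. Such fits also have fewer residual degrees of freedom, and the cause of the lost calls was not tested. Over all alternative fits 1 slope of a called trend reversed, and that was with the mean of probes. Fitted on the 4 arrays of their own series, limma called no antisense RNA, with 40 for EEDS and 26 for helveticoside at an unadjusted p under 0.05. Without the EEDS vehicle array or without the 20 ug/mL array no EEDS trend remained (26 and 35 at an unadjusted p under 0.05). Without the 1.25 ug/mL, the 15 nM or the 60 nM array, 14, 9 and 12 EEDS calls were made. Without the 15 nM or the 60 nM array no helveticoside trend was called (29 and 30 at an unadjusted p under 0.05), and without the helveticoside vehicle, the 1.25 ug/mL or the 5 ug/mL array there were 4, 6 and 6.

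A dose trend for both agents was called for 8 antisense RNAs. SNAI3-AS1, PSMG3-AS1, A1BG-AS1, TMPO-AS1 and DHRS4-AS1 were among those that fell, and SERTAD4-AS1 and OIP5-AS1 rose. In what follows, log2 signals are given in the order vehicle, then the 3 rising doses.

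**Figure D2:**
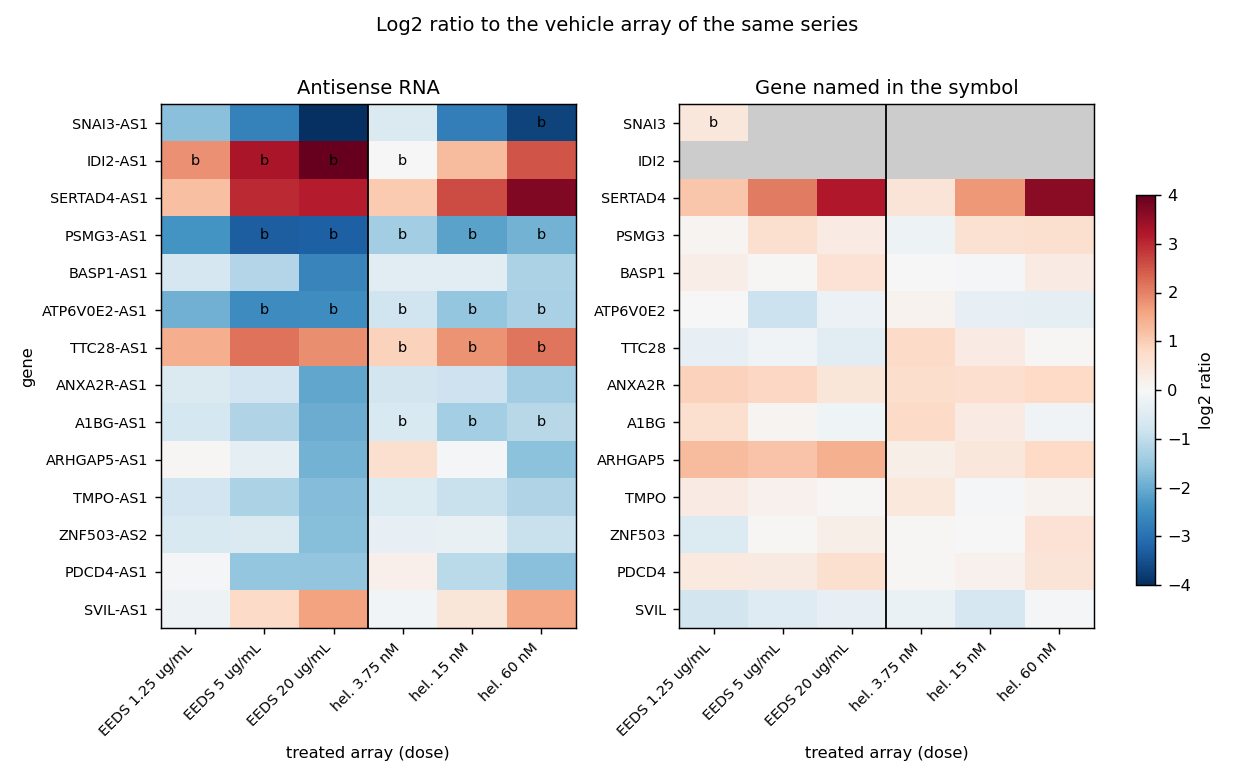
Log2 ratio of each treated array to the vehicle array of its series for 14 of the 15 antisense RNAs with the largest log2 ratio (left) and for their partners (right); b marks a bound, grey means that neither array was well above background, and 1 array stands behind each cell. SNAI3-AS1 darkens in blue with dose for both agents, SERTAD4-AS1 and SERTAD4 both redden, and most other partners stay near white.

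SERTAD4-AS1 rose the most of the members measured on all arrays, and its partner rose with it. SERTAD4 is a member of the SERTA domain family, whose best known proteins bind cell cycle and transcription factors. The log2 signal of SERTAD4-AS1 was 8.22, 9.41, 11.20 and 11.35 in the EEDS series and 7.73, 8.77, 10.34 and 11.44 in the helveticoside series. Every treated array lay above its vehicle. SERTAD4 read 6.21, 7.32, 8.29 and 9.41 with EEDS and 5.82, 6.33, 7.54 and 9.41 with helveticoside, so it too stood above vehicle at every dose. At the top doses SERTAD4-AS1 was 8.76-fold and 13.0-fold higher than vehicle. Its limma slopes were 1.12 ± 0.15 (SE) per dose step for EEDS, adjusted p = 0.016, and 1.27 ± 0.15 for helveticoside, adjusted p = 0.018. The slopes of SERTAD4 were 1.06 ± 0.14 and 1.20 ± 0.14, limma adjusted p = 0.016 and 0.017. The genes lie head to head with starts 1089 bases apart, and their start regions are printed above.

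SNAI3-AS1 had the largest ratio among members measured at both ends of a series. SNAI3 belongs to the SNAIL family of zinc finger repressors. The log2 signal of SNAI3-AS1 was 9.46, 7.79, 6.76 and 5.05 with EEDS and 9.19, 8.61, 6.44 and 5.48 with helveticoside, the last not well above background. It was lower at each higher dose. At 20 ug/mL it was 21.2-fold lower than vehicle, and at 60 nM at least 13.1-fold lower. The limma slopes were -1.42 ± 0.15 and -1.33 ± 0.15, adjusted p = 0.013 and 0.017. SNAI3 was well above background on 1 array only, that of 1.25 ug/mL of EEDS, so the pair could not be compared.

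PSMG3-AS1 and ATP6V0E2-AS1 were measured on the vehicle arrays and lost below background as dose rose. PSMG3 is a chaperone of proteasome assembly, and ATP6V0E2 a subunit of the vacuolar proton pump. PSMG3-AS1 read 8.06, 5.65, 4.75 and 3.53 with EEDS and 7.36, 5.88, 4.81 and 4.52 with helveticoside, and only the EEDS vehicle, 1.25 ug/mL and helveticoside vehicle arrays were well above background. It was at least 9.51-fold lower at 20 ug/mL and at least 3.70-fold lower at 60 nM. Its slopes, fitted on the signals as read, were -1.45 ± 0.19 and -0.96 ± 0.19 (limma adjusted p = 0.016 and 0.038), while PSMG3 stayed between 11.24 and 12.54 on all 8 arrays. ATP6V0E2-AS1 read 7.29, 5.39, 4.69 and 3.31 with EEDS and 6.77, 3.23, 3.12 and 3.10 with helveticoside, well above background on the same 3 arrays. It was at least 5.61-fold lower and at least 2.45-fold lower at the top doses, with no trend past the threshold (limma adjusted p = 0.081 and 0.12). ATP6V0E2 stood at -0.24 and -0.37 from vehicle on the log2 scale at the top doses.

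A1BG-AS1, TMPO-AS1 and DHRS4-AS1 were lower at each higher dose in both series. A1BG encodes a plasma glycoprotein, TMPO the lamina-associated polypeptides of the nuclear envelope, and DHRS4 a carbonyl reductase. A1BG-AS1 read 7.44, 6.74, 6.24 and 5.46 with EEDS, and 6.57, 5.93, 5.22 and 4.55 with helveticoside, of which only the vehicle was well above background. Its slopes were -0.65 ± 0.07 and -0.68 ± 0.07 (limma adjusted p = 0.013 and 0.016), and A1BG had none past the threshold. TMPO-AS1 read 6.96, 6.20, 5.70 and 5.23 with EEDS and 7.22, 6.67, 6.32 and 6.02 with helveticoside, lower at each higher dose. TMPO stayed between 8.86 and 9.59 on all 8 arrays. TMPO-AS1 was 3.31-fold and 2.29-fold lower than vehicle at the top doses, with limma adjusted p = 0.015 and 0.033. DHRS4-AS1 read 10.27, 9.81, 9.35 and 8.83 with EEDS and 11.52, 11.28, 11.07 and 10.37 with helveticoside (limma adjusted p = 0.016 and 0.030), where a second probe gave log2 ratios of -0.26 and -0.85 at the top doses against -1.44 and -1.15 here. DHRS4 itself read -0.90 and -0.85 as log2 ratios at the top doses, without a trend past the threshold.

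OIP5-AS1 rose with both agents, and its partner had no trend past the threshold. OIP5-AS1, also called Cyrano, is a conserved long noncoding RNA known for a site that pairs with a microRNA, and OIP5 encodes a centromere protein. The log2 signal of OIP5-AS1 was 8.94, 9.24, 9.64 and 9.91 with EEDS and 8.79, 9.12, 9.42 and 10.00 with helveticoside, higher at each higher dose. It stood 1.96-fold and 2.32-fold above vehicle at the top doses, with slopes of 0.33 ± 0.05 and 0.39 ± 0.05 (limma adjusted p = 0.020 and 0.019). OIP5 read 12.05, 11.70, 11.81 and 11.02 with EEDS and 11.93, 11.61, 11.55 and 11.40 with helveticoside, below vehicle on all 6 treated arrays, with slopes of -0.30 ± 0.08 and -0.16 ± 0.08 (limma adjusted p = 0.068 and 0.26). The 2 genes meet tail to tail.

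**Figure D3:**
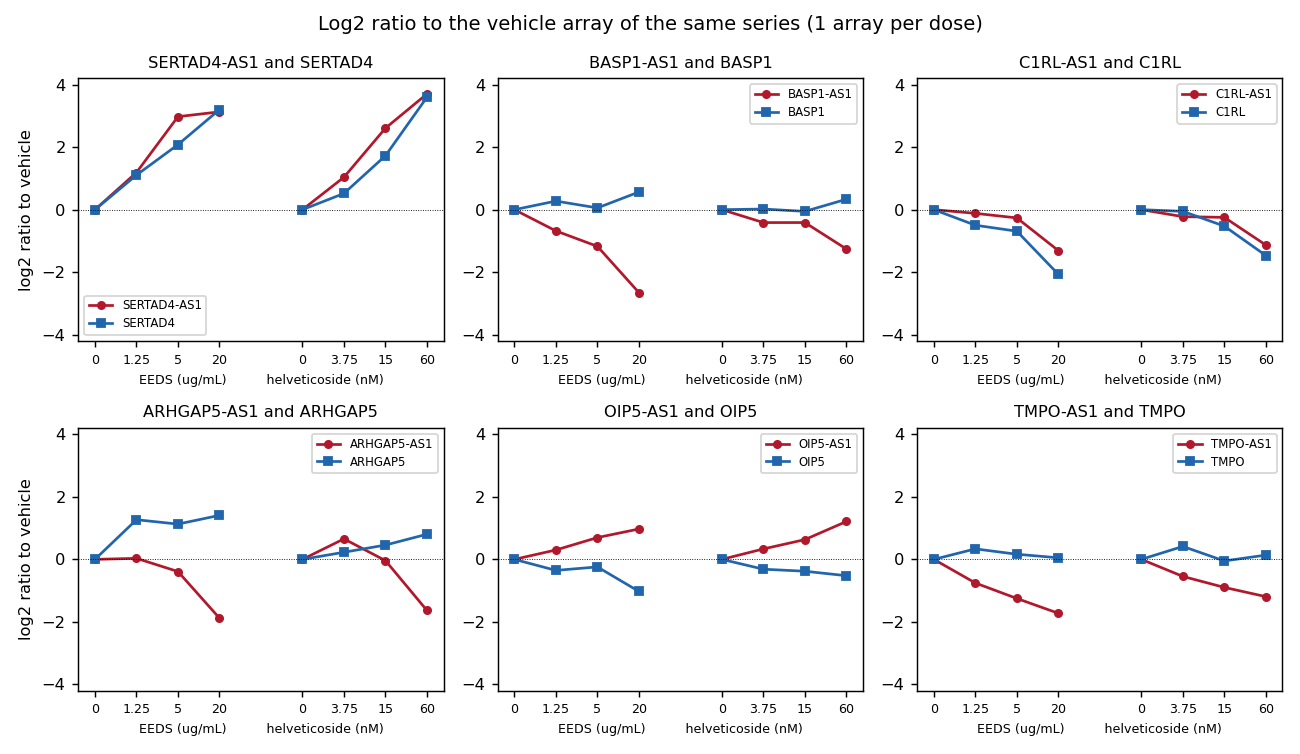
Log2 ratio to the vehicle array of the same series for 6 antisense RNAs (circles) and their partners (squares) at each dose of EEDS (left of each panel) and helveticoside (right); each point is 1 array. SERTAD4-AS1 and SERTAD4 climb together, BASP1-AS1 drops while BASP1 stays within 1 log2 unit of vehicle, and ARHGAP5-AS1 and OIP5-AS1 part from their partners.

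BASP1-AS1 and ANXA2R-AS1 fell with EEDS. BASP1 is a membrane-bound protein of the growth cone that also represses transcription. BASP1-AS1 read 8.33, 7.65, 7.16 and 5.68 with EEDS and 8.43, 8.02, 8.02 and 7.17 with helveticoside. It was 6.29-fold lower than vehicle at 20 ug/mL and 2.39-fold lower at 60 nM, with limma adjusted p = 0.019 and 0.11. BASP1 differed from vehicle by 0.57 and 0.33 on the log2 scale at the top doses. ANXA2R-AS1, named for the annexin A2 receptor gene, read 8.98, 8.41, 8.20 and 6.90 with EEDS and 9.89, 9.14, 9.06 and 8.49 with helveticoside. It was 4.23-fold and 2.63-fold lower at the top doses (limma adjusted p = 0.026 and 0.074), and ANXA2R was 0.49 and 0.79 above vehicle on the log2 scale. For ZNF503-AS2, beside a zinc finger repressor gene, the signals were 8.85, 8.23, 8.28 and 7.14 with EEDS and 8.95, 8.64, 8.66 and 8.06 with helveticoside. It was 3.27-fold and 1.86-fold lower at the top doses (limma adjusted p = 0.042 and 0.20), and ZNF503 was 0.24 and 0.58 above vehicle on the log2 scale.

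ARHGAP5-AS1, PDCD4-AS1 and SVIL-AS1 were over 2-fold from vehicle at both top doses without a trend past the threshold. ARHGAP5 encodes a GTPase activating protein, PDCD4 an inhibitor of translation initiation, and SVIL the actin-binding protein supervillin. ARHGAP5-AS1 read 10.14, 10.17, 9.75 and 8.26 with EEDS and 10.05, 10.71, 10.01 and 8.41 with helveticoside, with only the top doses clearly below vehicle. ARHGAP5 read 9.43, 10.70, 10.55 and 10.84, then 10.31, 10.54, 10.77 and 11.11. At 20 ug/mL ARHGAP5-AS1 was 3.68-fold lower and ARHGAP5 was 1.41 above vehicle on the log2 scale. A second ARHGAP5-AS1 probe gave log2 ratios of -1.69 at 20 ug/mL and -0.29 at 60 nM, where the first gave -1.88 and -1.64. PDCD4-AS1 read 9.79, 9.73, 8.23 and 8.20 with EEDS and 9.71, 9.90, 8.63 and 8.04 with helveticoside, near vehicle at the lowest dose and 3.01-fold and 3.17-fold lower at the top doses, while PDCD4 was 0.63 and 0.50 above vehicle on the log2 scale. SVIL-AS1 read 9.76, 9.57, 10.54 and 11.37 with EEDS and 9.57, 9.47, 10.05 and 11.11 with helveticoside, 3.06-fold and 2.90-fold higher at the top doses, while SVIL stood at -0.34 and -0.07 from vehicle on the log2 scale.

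IDI2-AS1 and TTC28-AS1 were higher at every EEDS dose. IDI2 encodes an isomerase of the isoprenoid pathway and TTC28 a protein of the mitotic spindle midzone. IDI2-AS1 was not well above background on the EEDS vehicle array (log2 signal 4.57) and then read 6.39, 7.84 and 8.93. In the helveticoside series it read 5.92, 4.27, 7.18 and 8.44, the second not well above background. It was at least 20.5-fold higher at 20 ug/mL and 5.72-fold higher at 60 nM, with no trend past the threshold (limma adjusted p = 0.063 and 0.15), and IDI2 was well above background on no array. TTC28-AS1 read 6.38, 7.83, 8.54 and 8.25 with EEDS and 5.74, 6.66, 7.53 and 7.89 with helveticoside, whose vehicle was not well above background. It was 3.65-fold higher at 20 ug/mL and at least 4.44-fold higher at 60 nM (limma adjusted p = 0.074 and 0.061), while TTC28 stood at -0.43 and 0.05 from vehicle on the log2 scale.

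Another 17 antisense RNAs were over 2-fold from vehicle at a top dose. Among them, THAP7-AS1, SLC24A3-AS1, DHRS4-AS1, URB1-AS1, FUT8-AS1, A2M-AS1, C1RL-AS1, RHPN1-AS1, DLGAP1-AS1 and PRR34-AS1 were lower at the top EEDS dose. For THAP7-AS1, FUT8-AS1 and RHPN1-AS1 this was by a bound. RBM12B-AS1 and PSMA3-AS1 were higher at that dose. SLC24A3-AS1, DHRS4-AS1, URB1-AS1 and C1RL-AS1 were also over 2-fold lower at the top helveticoside dose. GNAO1-AS1 and WWC2-AS2 were lower at the top helveticoside dose by a bound, and CDKN2A-AS1 and OIP5-AS1 were higher there. Of these, RHPN1-AS1 and DLGAP1-AS1 fell and PSMA3-AS1 rose in the EEDS fit, and GNAO1-AS1 fell in the helveticoside fit. Trends past the threshold without a 2-fold change were seen for B3GALT5-AS1, KLF3-AS1, ATP2B1-AS1, SMAD5-AS1 and TMEM254-AS1, which fell with EEDS, for FAM83A-AS1, PGM5-AS1 and ZFAT-AS1, which rose with EEDS, and for FMR1-AS1, which rose with helveticoside. SMAD5-AS1, TMEM254-AS1, PGM5-AS1 and ZFAT-AS1 were well above background on no array.

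Pairs were compared where both genes were well above background on both arrays. At 20 ug/mL of EEDS this left 58 pairs, and in 29 of them neither gene was over 2-fold from vehicle. The antisense RNA alone was over 2-fold from vehicle in 12, the partner alone in 13, and both in 4. The 3 pairs that went the same way included those of SERTAD4 and C1RL, and ARHGAP5 was the 1 pair that went opposite ways. At 60 nM of helveticoside there were 48 pairs, with neither gene over 2-fold from vehicle in 24, the antisense RNA alone in 10, the partner alone in 11, both the same way in 2 (SERTAD4 and C1RL) and opposite ways in 1 (CDKN2A). The antisense RNA and its partner differed from each other by over 2-fold in response in 26 of the 58 pairs and 22 of the 48. No share over unrelated pairs of genes stands beside these counts, so they do not set these pairs apart. Across pairs the Pearson r of the log2 ratios was 0.17 for EEDS and 0.28 for helveticoside, and the Spearman correlation 0.06 and 0.08. All pairs of a dose share 2 arrays, pairs are not independent replicates, and the correlations are descriptions. The sign was the same in 27 of 58 and 26 of 48 pairs.

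**Figure D4:**
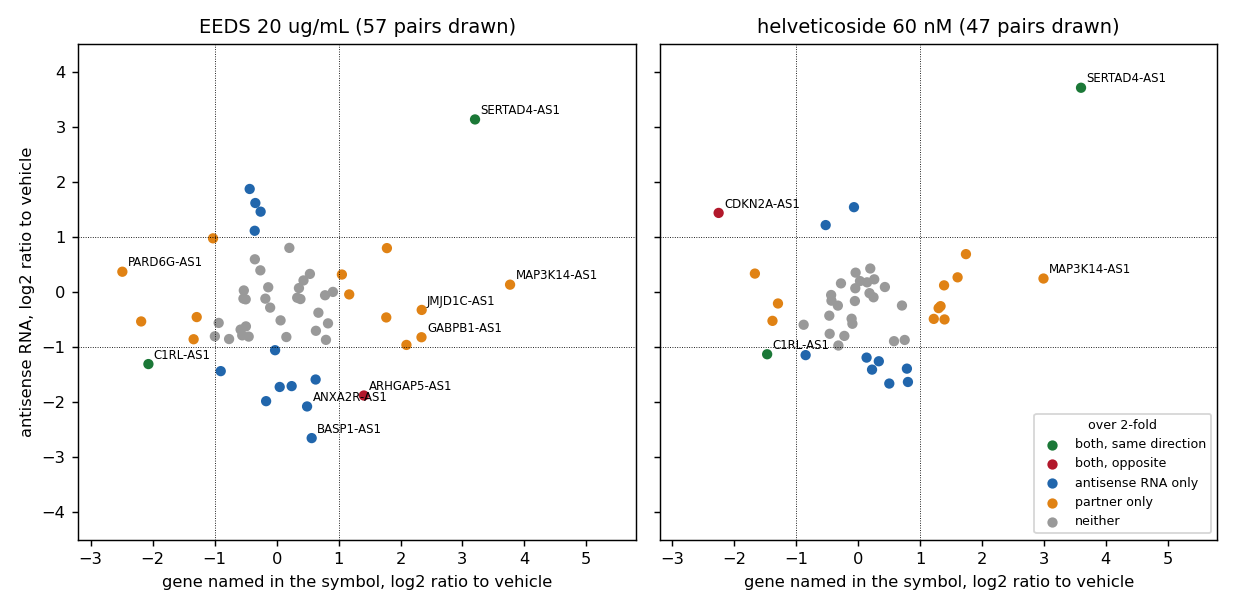
Log2 ratio to vehicle of the antisense RNA (vertical) against that of its partner (horizontal) at the top dose of each agent; each point is a pair measured on both arrays, dotted lines mark 2-fold, and colours give which gene of the pair passed it. SERTAD4-AS1 lies alone at the upper right of both panels, and MAP3K14-AS1 lies near the horizontal axis; 1 pair is not drawn.

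C1RL-AS1 went with its partner. C1RL encodes a serine protease related to complement C1r. C1RL-AS1 read 7.41, 7.29, 7.14 and 6.10 with EEDS and 9.78, 9.56, 9.53 and 8.65 with helveticoside, and C1RL read 9.05, 8.55, 8.36 and 6.98, then 9.22, 9.17, 8.69 and 7.75. Only the top dose of each series lay over 2-fold below vehicle for either gene. C1RL-AS1 was 2.48-fold and 2.19-fold lower at the top doses without a trend past the threshold (limma adjusted p = 0.096 and 0.16). A second C1RL-AS1 probe, well above background on all 8 arrays, stood at -1.02 and -0.81 on the log2 scale, so with it the antisense RNA and the pair were not over 2-fold lower at 60 nM. C1RL fell with EEDS (limma adjusted p = 0.041 and 0.088). THAP7-AS1, with a partner of the THAP zinc finger family, was at least 2.87-fold lower at 20 ug/mL, where THAP7 stood at -2.44 on the log2 scale. THAP7 fell with EEDS (limma adjusted p = 0.030). RHPN1-AS1 was at least 2.41-fold lower at 20 ug/mL, where RHPN1 stood at -1.86 on the log2 scale. RHPN1 fell with both agents (limma adjusted p = 0.014 and 0.016).

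CDKN2A-AS1 and CDKN2A went opposite ways at 60 nM. CDKN2A encodes the cell cycle inhibitors p16 and p14ARF, and A549 cells are known to carry a deletion at this locus, so what these probes read in this line is not settled by the arrays. CDKN2A-AS1 read 4.58, 4.15, 4.60 and 5.09 with EEDS and 5.81, 5.55, 6.08 and 7.25 with helveticoside, well above background on 4 of the 8 arrays, and was 2.70-fold higher at 60 nM. CDKN2A read 11.31, 9.71, 9.19 and 9.15, then 11.56, 11.15, 10.27 and 9.31, and fell with both agents (limma adjusted p = 0.046 and 0.045). ZBTB11-AS1 and its partner came close to an opposite pair at 20 ug/mL, with the antisense RNA lower and the partner higher, the reverse of CDKN2A. ZBTB11-AS1 had a log2 ratio of -0.96 at 20 ug/mL, with -1.57 by its second probe. Its partner ZBTB11, a zinc finger transcription factor gene, was 2.10 above vehicle on the log2 scale at 20 ug/mL and 1.71 at 60 nM, and rose with both agents (limma adjusted p = 0.017 and 0.028).

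In other pairs a partner moved over 2-fold and its antisense RNA stayed within 2-fold of vehicle at the top doses. These were chosen after their values were seen. MAP3K14, the NF-kappaB-inducing kinase gene, read 10.49, 11.52, 12.72 and 14.26 with EEDS and 10.46, 10.16, 11.98 and 13.46 with helveticoside, and rose with both agents (limma adjusted p = 0.022 and 0.035). MAP3K14-AS1 read 6.58, 7.32, 7.39 and 6.72, then 6.73, 5.90, 7.10 and 6.97, with no order by dose. PARD6G, a cell polarity gene, fell with both agents (limma adjusted p = 0.016 and 0.036) and stood at -2.49 and -1.67 on the log2 scale at the top doses, where PARD6G-AS1 stood at 0.37 and 0.33. A second PARD6G-AS1 probe gave -0.73 and 0.33. JMJD1C, of the histone demethylase family, rose with EEDS (limma adjusted p = 0.019 and 0.067), with log2 ratios of 2.34 and 1.22 at the top doses, where JMJD1C-AS1 stood at -0.33 and -0.49. SPEN, a nuclear repressor that works with the Xist RNA, rose with both agents (limma adjusted p = 0.023 and 0.047), with 1.77 and 1.33, where SPEN-AS1 stood at -0.46 and -0.26, and a second SPEN-AS1 probe at -0.86 and -0.53.

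Pairs with close starts were set beside the other pairs of known strand. Among pairs with starts within 1000 bases, the antisense RNA and its partner had log2 ratios of the same sign in 3 of 17 at the top EEDS dose and in 5 of 15 at the top helveticoside dose. Among the others it was 14 of 23 and 13 of 19. Head to head pairs just past the cut were counted with the others. They included SERTAD4 (1089 bases) and DHRS4 (1342), of the same sign, and PDCD4 (1024), GABPB1 (1024) and ANXA2R (1113), of opposite sign. The medians for the close pairs were -0.46 for the antisense RNA and 0.38 for the partner with EEDS, and -0.25 and 0.18 with helveticoside. For the other pairs they were -0.11 and -0.34 with EEDS, and 0.15 and 0.03 with helveticoside. The 17 and 15 pairs overlap, the grouping was made after the ratios were known, and the difference was not tested.

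The 2 vehicle arrays, which received neither agent, also differed for the antisense RNAs. Over the 38 bright members, 10 were over 2-fold higher on the helveticoside vehicle array than on the EEDS vehicle array and 0 were over 2-fold lower. The 10 were 26.3% of the 38, where 3.49% of the 9605 genes as bright differed by over 2-fold. The median difference was 0.39 on the log2 scale, against -0.11 over all those genes, -0.08 over 91 partners and 0.39 over 31 LINC genes, the intergenic long noncoding RNAs. C1RL-AS1 differed by 2.37 and DHRS4-AS1 by 1.25. The excess over the median of all genes was also present with the signal as scanned (0.32 against -0.10) and with the 75th percentile scaling (0.40 against -0.12). The table of processed values was normalized by the authors separately for each series. In it the medians were -0.04 for the antisense RNAs and -0.63 for all genes, so that excess was present there too. By these values 5.26% of the 38 differed by over 2-fold in either direction, against 12.0% of all genes as bright. Split by direction, 2 of the 38 were over 2-fold higher and 0 lower, against 55 higher and 1097 lower of the 9605 genes. The larger pooled share of all genes thus came mostly from lower values. The series and the agent cannot be told apart here, so levels were compared between agents only through each series' own vehicle.

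**Figure D5:**
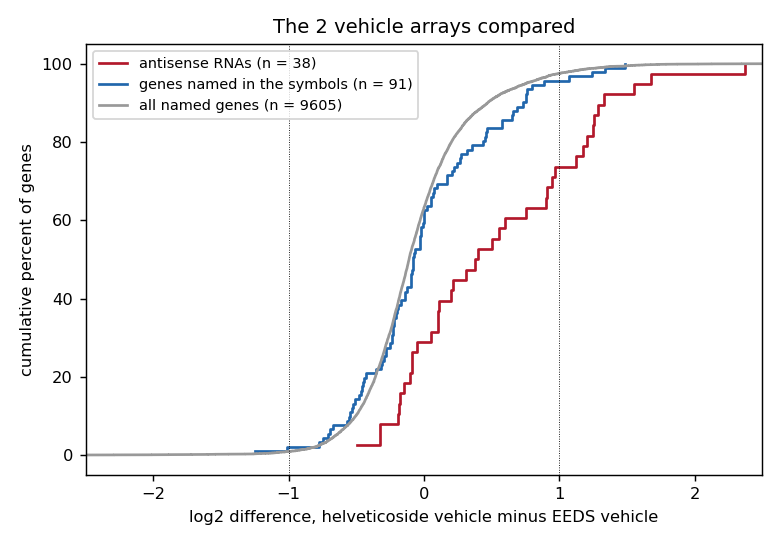
Cumulative percent of genes by the log2 difference between the 2 vehicle arrays (helveticoside vehicle minus EEDS vehicle), for bright antisense RNAs, partners and all named genes with a mean log2 signal of at least 8. The antisense RNAs lie to the right of the other lines, with a median of 0.39 and 10 of 38 beyond 1.

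Other noncoding RNA classes were counted in the same way. Over all genes, 16.8% were over 2-fold lower and 15.4% higher at the top EEDS dose, and 14.1% and 11.5% at the top helveticoside dose. Of 28 divergent transcripts (symbols ending in -DT), 5 of 17 were lower and 1 higher at the top EEDS dose (29.4% and 5.88%). At the top helveticoside dose 5 of 13 were lower and 1 higher (38.5% and 7.69%). Of those well above background on both arrays, BAIAP2-DT stood at -3.49 and -2.47 on the log2 scale and FLVCR1-DT at -1.96 and -2.73, and both fell with both agents (limma adjusted p = 0.013 and 0.016 for BAIAP2-DT, 0.039 and 0.025 for FLVCR1-DT). Of 195 LINC genes, 17 of 79 were lower and 9 higher at the top EEDS dose (21.5% and 11.4%). At the top helveticoside dose 15 of 67 were lower and 6 higher (22.4% and 8.96%). LINC00173 stood at -3.65 and LINC00473 at -3.56 for EEDS. Of 12 intronic transcripts, 1 of 9 was lower at the top EEDS dose (11.1%) and 1 of 8 higher at the top helveticoside dose (12.5%).

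Nuclear RNA surveillance, which degrades many noncoding transcripts, was followed through 22 genes of the exosome, its adaptors and the cap-binding complex. In each series 2 rose and 1 fell by the limma fit (13.6%), near the shares over all genes, 15.1% for EEDS and 11.3% for helveticoside. At the top EEDS dose 3 of the 21 measured were over 2-fold higher and 1 lower (14.3% and 4.76%), against 15.4% and 16.8% of all genes. At the top helveticoside dose 1 of 21 was higher and 2 lower (4.76% and 9.52%), against 11.5% and 14.1%. These shares lay below those of all genes. NCBP2, the small subunit of the cap-binding complex, stood at 1.47 and 1.41 on the log2 scale at the top doses (limma adjusted p = 0.014 and 0.019). NCBP1, the large subunit, stood on the other side of vehicle at -0.91 and -1.25, without a trend past the threshold (limma adjusted p = 0.33 and 0.15). C1D, a cofactor of the nuclear exosome, stood at 1.11 and 0.99 (limma adjusted p = 0.016 and 0.023), and EXOSC3, an exosome core subunit, at -1.26 and -1.02 (limma adjusted p = 0.025 and 0.036). ZCCHC8, the scaffold of the NEXT adaptor, stood at 1.47 and 0.89 with adjusted p = 0.053 and 0.12. The median over the 21 well above background was 0.06 at the top EEDS dose and -0.04 at the top helveticoside dose.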

How the data were processed

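For 8 one-colour Agilent arrays, the authors deposited an intensity per spot as read by the scanner software: the scanned signal, the local background, the background-subtracted processed signal and calls of outlier and well-above-background spots. A second deposited table holds processed intensities that, from their values, were quantile-normalized within each series. The labels name the Cy5 dye and the files hold green-channel columns. No slide or scan date is given, so no batch other than the series could be examined. Control and outlier spots were left out, and 22 probes had outlier spots only. The deposited processed intensity was averaged across replicate spots, the 8 arrays were quantile-normalized together, and values were taken to log2. On each array 54.5% to 64.9% of probes were well above background. Probes were matched by sequence accession to RefSeq names (GRCh38.p14), and the brightest of several probes stood for a gene, as for 21 members. Each treated array was compared with its own vehicle array. Dose trends came from limma 3.58.1 in R 4.3.3, with statmod 1.5.0 for robust estimation and a mean-variance trend. Each series had its own intercept and slope over the 8 arrays, with 4 residual degrees of freedom and Benjamini-Hochberg adjustment over 19056 genes, and the fit was tested on simulated data. Residual spread is that of single arrays about a line, not of replicates, and 8 arrays limit how precise it is. Tables were made with Python 3.11.15, numpy 2.4.6 and pandas 2.3.3.

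The antisense RNAs and gene lists were chosen with earlier results of these data known. Named were members over 2-fold from vehicle at a top dose, by ratio or bound, or with a limma adjusted p under 0.05, of which the 15 with the largest log2 ratio are given on every array, apart from results that are not reported here and remain in the counts. Also named were partners of named members or of opposite pairs, and the leading genes of each list. Alternatives were other signals, scalings, filters, folds, probe rules, dose scales and controls. Leaving out single arrays was added after the data were seen.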

Additional observations from a re-analysis of the deposited data

Results flagged for a closer look

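PIK3CD-AS1, whose partner encodes a catalytic subunit of phosphoinositide 3-kinase, was below vehicle on all 3 EEDS arrays and above it on all 3 helveticoside arrays. The log2 ratios at the top doses were -0.0458 and 0.26. The limma test of the difference between the 2 slopes had an unadjusted p of 0.33. No group had the 4 samples that a search for single outlying arrays needs.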

How the results depend on the processing

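At the top EEDS dose, the 28 antisense RNAs over 2-fold from vehicle became 15 with the signal as scanned, 15 with normexp, 43 with the 75th percentile scaling, 44 with the 1.4 times background filter, 16 over members well above background on all arrays, 50 at 1.5-fold and 15 at 3-fold; lower values outnumbered higher ones in all of these, and the authors' values (24), the mean of probes (26) and the other series' vehicle (35) stayed within 1.5 times. At the top helveticoside dose, 22 became 11 with the authors' values, 45 with the 1.4 times background filter, 13 over members well above background on all arrays, 38 at 1.5-fold, 8 at 3-fold and 35 with the other series' vehicle, where 21 were higher and 14 lower. Against that vehicle DHRS4-AS1 read 0.10 and C1RL-AS1 1.24 on the log2 scale, the reverse of the main direction. EEDS trends, 23 in the fit, became 35 with the 75th percentile scaling, 13 over members well above background on all arrays, 11 on a straight line in dose and 0 on the 4 EEDS arrays alone (40 at an unadjusted p under 0.05 in limma). Helveticoside trends, 10 in the fit, became 17 with the signal as scanned, 17 with normexp, 6 on a straight line and 0 on the 4 helveticoside arrays alone (26 at an unadjusted p under 0.05). Leaving out 1 array at a time gave 0 to 20 EEDS trends and 0 to 9 helveticoside trends. The EEDS slope of B3GALT5-AS1 became 0.041 with the mean of its probes. The 2 opposite pairs became 9 with the 1.4 times background filter and 4 with the 75th percentile scaling, and remained 2 in number with the mean of probes, where ZBTB11-AS1 replaced ARHGAP5-AS1. Over single named genes, 295 of the recomputed ratios stayed over 2-fold in the same direction, 79 fell under it and 2 reversed. The cause of these shifts was not tested, and some settings also test fewer genes or arrays. No paired analysis was possible because each group had 1 array. Signal over background limits the 105 members not measured on all arrays.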
